A study of Mus musculus with 15 samples.

Results

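Ileum from conditional Gata4 knockin mice (cKI ileum, 3 arrays) was set against jejunum from mice labelled as carrying a conditional Gata4 knockout (cKO jejunum, 3 arrays), which makes 6 of the 15 arrays of the series, taken by their titles. In this pairing anatomical region and Gata4 status run opposite to their usual order: the distal region carries the knockin and the proximal region the knockout label. The other 9 arrays are wild-type ileum and wild-type jejunum, both from adult CD1 mice, and control ileum from adult control animals, 3 arrays each, and serve here as references. All 5 groups are adult epithelial cells isolated from the small intestine, measured on Affymetrix Mouse Gene 1.0 arrays. The labels give no strain for the cKI, cKO and control animals, no Cre driver, no deleted part of Gata4, no age beyond adult and no jejunal control for the knockout, and they do not say that arrays are separate animals. The p-values therefore measure the spread between these arrays, which may be technical. Region and labelled Gata4 status differ between the cKI ileum and the cKO jejunum, and the set of mice may differ as well. The shares of these 3 in a difference cannot be told apart from these 6 arrays alone.

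GATA4 is a zinc finger transcription factor that binds the sequence WGATAR, and in the adult mouse small intestine it is present in the duodenum and jejunum and nearly absent from the terminal ileum. The jejunum digests and absorbs sugars, fats, folate and most amino acids, while the terminal ileum recovers bile acids through the apical transporter SLC10A2 and the cytosolic carrier FABP6, and takes up cobalamin bound to intrinsic factor. Gata5 and Gata6 encode the other GATA factors of the intestinal epithelium. The comparison addresses which region-specific genes go with the place the cells came from and which go with Gata4 status.

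Gata4 itself was present in both groups. Its deposited log2 value was 8.02, 8.43 and 8.17 on the cKI ileum arrays and 9.72, 9.88 and 9.93 on the cKO jejunum arrays. Wild-type ileum had a mean of 5.6, wild-type jejunum 9.53 and control ileum 6.82. The control ileum thus exceeded the wild-type ileum in Gata4 by 1.22 ± 0.18 (adjusted p = 0.000284), and the labels give no genotype for the control animals. The arrays labelled cKO jejunum were thus the brighter of the 2 groups, with no overlap, by 1.64 ± 0.18 (log2 difference ± standard error from limma, adjusted p = 1.73e-05, n = 3 against 3), a 3.11-fold difference, and they lay at or above the mean of wild-type jejunum. This signal goes against the knockout label at the level of the transcript cluster. The same arrays differed from wild-type jejunum in Fabp6 by 8.27 ± 0.24, in Slc10a2 by 6.34 ± 0.29 and in Lct by -4.26 ± 0.60. All 3 passed the test (adjusted p = 2.67e-11, 4.51e-09 and 0.000224 in limma). The files do not give the probes' positions and the labels do not name the deleted part, so the cluster cannot check the deletion, and every direction below is that of the arrays as labelled. Gata5 differed by -0.41 ± 0.18 (adjusted p = 0.0926) and Gata6 by 0.15 ± 0.10 (adjusted p = 0.262), neither past the test. Gata5 passed it without cKO replicate 2 (-0.61) and after quantile normalization (-0.46) or centring of the arrays (-0.56), and Gata6 turned to -0.01 after centring. Zfpm1, which encodes the GATA cofactor FOG1, differed by -0.05 ± 0.14 (adjusted p = 0.826). Of the 4 tested members of a list of GATA factors and cofactors, Gata4 alone passed the test.

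Array medians lay between 4.82 and 5.0 on the log2 scale, and precision is limited by there being 3 arrays in a group. The 11784 genes tested, from 19938 with a symbol, are those whose largest group mean exceeded 4.91, the median of the table. All 11 epithelial markers lay above this level on all 6 arrays. Xist was between 2.26 and 3.24 and Kdm5d, Uty and Eif2s3y were between 6.10 and 8.28 on all 15 arrays, the same pattern in every group. Among markers of other cell types, 5 of 12 for T and NK cells, 1 of 7 for B and plasma cells, 3 of 11 for myeloid cells, 7 of 15 for stromal and smooth muscle cells and 1 of 8 for endothelial and glial cells lay above this level on all 6 arrays. The defining markers Cd3d, Cd8b1, Cd79a, Ms4a1, Adgre1, C1qa, Pecam1, Cdh5, Lum and Pdgfra were at or below 4.91 on all 6 arrays. Of the genes named below, Snord61, Snord58b, Cyp2c55, Slc6a14, Rny1, Apol10a, Trim38, BC018473, Tmprss15, Afp, Cd36, Hao2, Abi3bp, Nr0b2, Pdk4 and Tnfrsf19 had a group mean at or below it in 1 of the 2 groups, so their differences carry no fold.

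Transcript signals of the bile acid recovery genes Fabp6 and Slc10a2 were lower in the cKI ileum than in the labelled cKO jejunum. Fabp6 was at 10.15, 10.74 and 11.19 on the cKI ileum arrays and at 12.88, 12.46 and 12.67 on the cKO jejunum arrays. The knockout-labelled jejunum thus held Fabp6 at the level of wild-type ileum (mean 12.68), far above wild-type jejunum (4.4), and the cKI ileum was lower by 1.97 ± 0.24 on the log2 scale (adjusted p = 3.19e-05), a 3.93-fold difference. Slc10a2 was at 8.72, 8.72 and 7.90 in the cKI ileum and at 10.94, 10.60 and 10.81 in the cKO jejunum, against 11.27 in wild-type ileum and 4.45 in wild-type jejunum. The groups did not overlap, and the difference was -2.34 ± 0.29 (adjusted p = 3.81e-05), 5.06-fold. The control ileum differed from the wild-type ileum by -0.24 ± 0.24 for Fabp6 and by -1.12 ± 0.29 for Slc10a2, the latter past the test (adjusted p = 0.0105). After subtraction of that difference the cKI minus cKO difference was -1.74 for Fabp6, past the test (adjusted p = 0.022), and -1.22 for Slc10a2, not past it (adjusted p = 0.168). Lct, which encodes lactase, the brush border enzyme that splits milk sugar, was at 8.78, 10.13 and 7.45 in the cKI ileum and at 8.90, 6.81 and 7.08 in the cKO jejunum. Both groups lay between wild-type ileum (4.72) and wild-type jejunum (11.86) and overlapped, and the difference of 1.19 ± 0.60 did not pass the test (adjusted p = 0.133). Single arrays decided this: without cKI replicate 3 the difference was 1.86 and without cKO replicate 1 it was 1.84, both past the test, and without cKI replicate 2 it was 0.51.

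**Figure D1:**
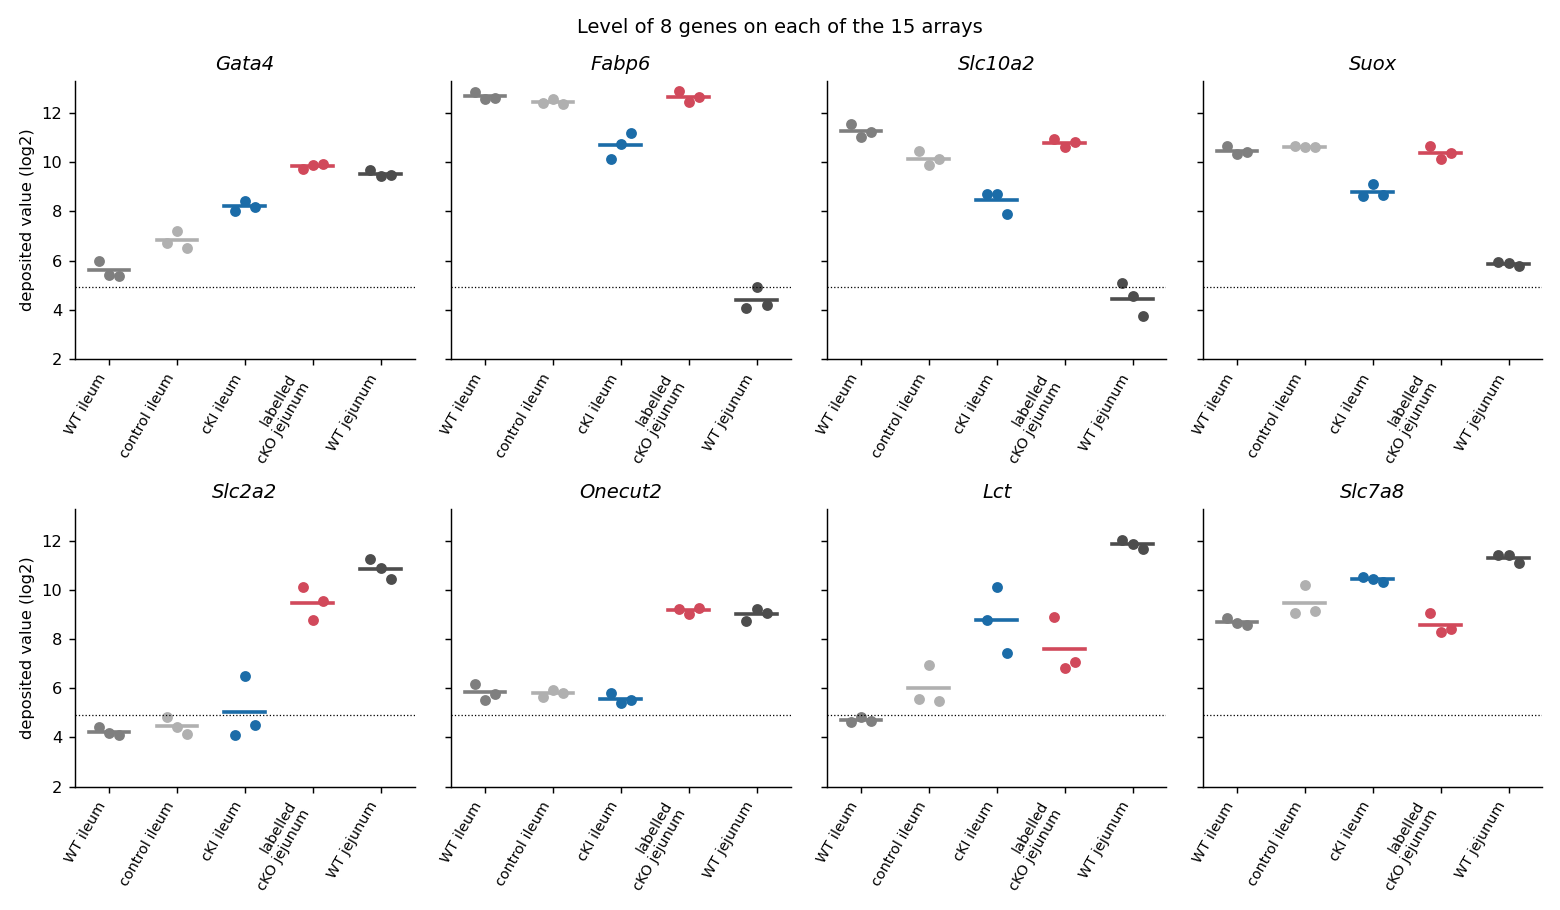
Deposited log2 value (vertical axis) of 8 genes on each array (points) in the 5 groups (horizontal axis), with the mean of the 3 arrays as a bar and the level limit of 4.91 as a dotted line. Gata4 is brighter on the labelled cKO jejunum arrays than on the cKI ileum arrays, the ileal genes Fabp6, Slc10a2 and Suox are lower in the cKI ileum, Slc2a2 and Onecut2 are low in the cKI ileum and high in the labelled cKO jejunum, and Lct overlaps between the groups.

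The stretches before the start sites of these 3 markers, and of Slc6a14, the ileum-high gene with the largest difference that had a sequence in the table used, are shown because their genes separate the regions and because the motif is that of the factor altered here. Each is the 250 bases upstream of the RefSeq start on GRCm38.p6, read 5′ to 3′ on the gene's strand, with each match on either strand in capitals. Searched for were AGATAA, its form with a final G (AGATAG), its form with an initial T (TGATAA) and the form with both changes (TGATAG), and where a match is on the opposite strand the capitals spell its reverse complement. Fabp6 lies at chr11:43601563-43601812 on the minus strand, Slc10a2 at chr8:5105288-5105537 on the minus strand, Lct at chr1:128328319-128328568 on the minus strand and Slc6a14 at chrX:21714650-21714899 on the plus strand.
Fabp6: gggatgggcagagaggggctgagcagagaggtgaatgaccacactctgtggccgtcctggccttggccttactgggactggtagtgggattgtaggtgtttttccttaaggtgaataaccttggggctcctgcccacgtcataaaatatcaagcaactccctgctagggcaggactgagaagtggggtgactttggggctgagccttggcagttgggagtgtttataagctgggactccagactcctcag
Slc10a2: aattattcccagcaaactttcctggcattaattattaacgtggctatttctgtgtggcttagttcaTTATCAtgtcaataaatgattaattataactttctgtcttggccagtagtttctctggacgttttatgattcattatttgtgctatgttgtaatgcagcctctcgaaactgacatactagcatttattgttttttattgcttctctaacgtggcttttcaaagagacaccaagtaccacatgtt
Lct: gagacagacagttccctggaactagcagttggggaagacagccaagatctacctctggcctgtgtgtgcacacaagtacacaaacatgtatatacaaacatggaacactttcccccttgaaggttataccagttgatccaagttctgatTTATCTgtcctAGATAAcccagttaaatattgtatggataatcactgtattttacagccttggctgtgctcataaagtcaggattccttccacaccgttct
Slc6a14: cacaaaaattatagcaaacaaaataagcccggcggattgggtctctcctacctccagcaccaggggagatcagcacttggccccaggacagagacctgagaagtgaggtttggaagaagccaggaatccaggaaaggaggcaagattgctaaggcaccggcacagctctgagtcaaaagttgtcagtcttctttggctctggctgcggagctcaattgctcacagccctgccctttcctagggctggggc
The Lct stretch held 2 matches, at -101 and -90 from the start, the Slc10a2 stretch 1 match at -184, and the other two none in these letters. Of 32851 stretches of this length in the table, 8718 (26.5%) held at least 1 match. Taking the first stretch of each gene tested, 1630 of 9428 (17.3%) held one. A match is a description of the sequence and not evidence of binding.

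At an adjusted p under 0.05, the cKI ileum exceeded the labelled cKO jejunum in 2946 genes and fell short of it in 1353, which is 36.5% of the genes tested (25% higher and 11.5% lower). For 44.9% of the genes the arrays of the 2 groups did not overlap. The split depends on the scaling: 68.5% of the called genes were higher as deposited, 52.6% (2242 against 2022) after quantile normalization and 46.2% (1987 against 2317) after centring each array on its median. The median difference of all genes was 0.10 as deposited, 0.00 after quantile normalization and -0.05 after centring. The 2 ilea without the knockin label differed as well. Control ileum against wild-type ileum, a comparison that shares no array with the first, called 2275 genes higher (19.3%) and 1015 lower (8.61%), 27.9% of those tested together. Of the 2946 genes higher in the cKI ileum, 1594 (54.1%) were also higher in the control ileum than in the wild-type ileum and 2 were lower. Those 1594 were 70.1% of the control ileum's own list. Of the 1353 genes lower in the cKI ileum, 555 (41%) were also lower in the control ileum and 24 higher, and the 555 were 54.7% of that list. When the control minus wild-type ileum difference was subtracted from each gene's cKI minus cKO difference, which gives a set-adjusted difference with a larger error, 43 genes were called higher (0.365%) and 104 lower (0.883%), 1.25% together. The subtraction removes a difference between sets of mice only under an assumption. The cKI ileum must share the set of the control ileum, and the cKO jejunum that of the wild-type ileum. The labels do not say which set of mice the cKO jejunum belongs to, and whether the shared differences come from the set of mice was not tested.

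Regional genes were taken from the wild-type arrays alone: 2507 genes (21.3%) differed between wild-type jejunum and ileum past the test, 13.4% of all genes higher and 7.91% lower in jejunum. Of these, 724 (6.14% of those tested) differed at least 2-fold, 491 higher in jejunum and 233 higher in ileum. The smallest difference inside the fold limit was 1.0000 and the largest outside it 0.9994 on the log2 scale. Neither the cKI nor the cKO arrays entered this difference, though they entered its error and the level filter, and their own contrast was read against it. A jejunum-high gene that was lower in the cKI ileum went with anatomical position, and one that was higher went with labelled Gata4 status. For ileum-high genes it is the reverse. In all, 177 genes (24.4%) went with position, 117 (16.2%) went with labelled Gata4 status, and 430 (59.4%) did not pass the test in either direction. Of the 9277 tested genes that were not called between the wild-type regions, 35.7% were called between cKI ileum and cKO jejunum.

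The counts on the jejunal and ileal sides were as follows. Of the 491 jejunum-high genes, 144 (29.3%) were lower in the cKI ileum, with position, against 11.5% of all genes, and 60 (12.2%) were higher, with labelled Gata4 status, against 25% of all genes. Their median difference was -0.30, beside 0.10 over all genes. Gata4 itself was jejunum-high and, with a difference of -1.64, is counted among the 144. Of the 233 ileum-high genes, 57 (24.5%) were lower in the cKI ileum, here with labelled Gata4 status, and 33 (14.2%) were higher, with position. Their median difference was -0.10. Both sides thus held a larger share of genes that were lower in the cKI ileum than all genes did. After centring, 435 genes were jejunum-high and 267 ileum-high. Over all 11784 genes, 1987 were then higher and 2317 lower in the cKI ileum. The 4 counts were 151 and 34 for the jejunum-high genes and 30 and 83 for the ileum-high genes in the same order of position and status. In another setting, genes were chosen in the 6 wild-type arrays alone and tested in the 6 cKI and cKO arrays alone. The counts there were 132 and 49 for the jejunum-high genes and 31 and 53 for the ileum-high genes. The choice of the ileal reference moved the counts further: with control ileum in place of wild-type ileum, 532 genes were jejunum-high and 491 ileum-high. Of these, 263 and 247 went with position while 30 and 35 went with labelled Gata4 status. This reference also takes in genes that set control and cKI ileum apart from the other groups without a wild-type regional difference. Such genes then count as with position. Snord22 had means of 10.53 in wild-type jejunum, 10.52 in wild-type ileum, 5.02 in control ileum, 5.13 in cKI ileum and 10.63 in cKO jejunum. These counts are therefore not a measure of regional genes alone. The set-adjusted difference, which shares the wild-type ileum arrays with the choice of genes and is given as a value only, had a median of -0.59 over the jejunum-high and 0.12 over the ileum-high genes. Errors in those arrays push it toward position, also for the single regional genes named below.

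**Figure D2:**
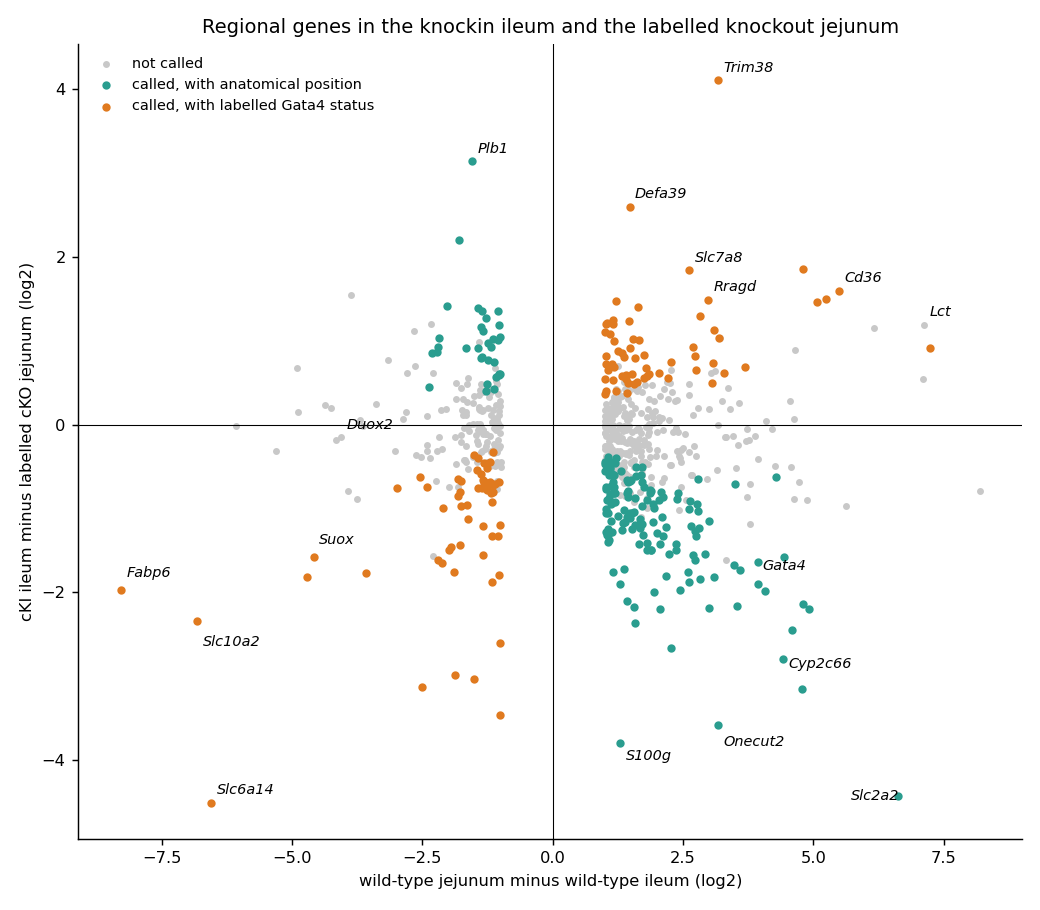
Each point is 1 of the 724 regional genes, placed by its wild-type jejunum minus ileum difference (horizontal axis, log2) and its cKI ileum minus labelled cKO jejunum difference (vertical axis, log2). Green points are called and go with anatomical position (144 jejunum-high and 33 ileum-high), orange points are called and go with labelled Gata4 status (60 and 57), and grey points are the 430 not called.

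The regional index summarised this for each array as the gap between its mean over jejunum-high and its mean over ileum-high genes, set to 0 for wild-type ileum and to 1 for wild-type jejunum on average. The cKI ileum arrays had indices of 0.316, 0.407 and 0.279, and the labelled cKO jejunum arrays 0.452, 0.318 and 0.362. The groups overlapped, both lay nearer the ileal end, and their means of 0.334 ± 0.0659 and 0.377 ± 0.0682 (SD, n = 3) differed by -0.0432 (exact two-sided permutation test, p = 0.5, where 3 against 3 arrays cannot go below 0.1). The control ileum lay at 0.177 ± 0.0746. Taken apart, the mean of the jejunum-high genes was 7.21 ± 0.253 in the cKI ileum and 7.54 ± 0.232 in the cKO jejunum (exact p = 0.2), and that of the ileum-high genes 7.12 ± 0.0163 and 7.28 ± 0.1 (exact p = 0.1). The 3 cKO jejunum arrays all had a higher mean of ileum-high genes than the 3 cKI ileum arrays.

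**Figure D3:**
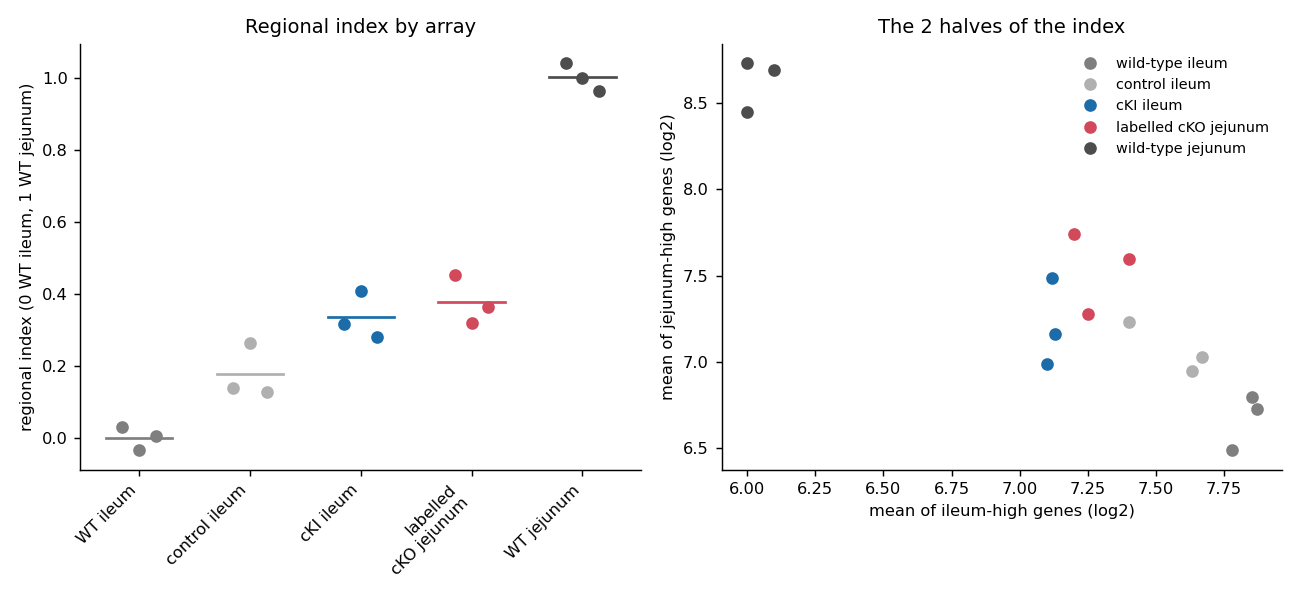
Left, the regional index of each array (points) with the group mean (bar), where 0 is the wild-type ileum mean and 1 the wild-type jejunum mean. Right, the 2 means the index is made of for each array, on the log2 scale. The cKI ileum (0.279 to 0.407) and the labelled cKO jejunum (0.318 to 0.452) overlap, between the ileal groups and the wild-type jejunum.

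The 8 jejunum-high genes with the largest differences that went with position were Slc2a2, S100g, Onecut2, Tmprss15, Cyp2c66, Aldh1a7, Cyp3a11 and Afp. Slc2a2, which encodes the basolateral glucose and fructose transporter GLUT2, was at 4.10, 6.52 and 4.52 in the cKI ileum and at 10.11, 8.76 and 9.56 in the labelled cKO jejunum. The cKI values lay near wild-type ileum (4.24) except on array 2, all 3 cKO values lay far above it and below the wild-type jejunum mean (10.87), and the difference was -4.43 ± 0.48 (adjusted p = 1.21e-05). Onecut2, which encodes a homeodomain transcription factor of the proximal gut, was at 5.81, 5.40 and 5.54 in the cKI ileum and at 9.24, 9.01 and 9.25 in the cKO jejunum. These values lay near the wild-type means of ileum (5.83) and jejunum (9.01), so that the cKI minus cKO difference of -3.58 ± 0.17 (adjusted p = 5.04e-09) was about as large as the wild-type regional one of 3.18. Its control ileum minus wild-type ileum difference was -0.04.

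S100g, which encodes the cytosolic calcium carrier calbindin-D9k, was at 5.43, 5.24 and 5.25 in the cKI ileum and at 9.80, 8.39 and 9.14 in the labelled cKO jejunum, a difference of -3.80 ± 0.39 (adjusted p = 7.42e-06). The cKO jejunum exceeded wild-type jejunum (7.23) as well. Cyp2c66, a cytochrome P450, was at 5.61, 6.25 and 6.55 against 8.91, 8.88 and 9.02, a 6.96-fold difference (adjusted p = 1.21e-06). Tmprss15, which encodes enteropeptidase, the activator of trypsinogen, was at 2.45, 2.70 and 2.68 in the cKI ileum and at 6.58, 3.39 and 7.30 in the cKO jejunum. Its second cKO array lay below the level limit with the cKI arrays, and the difference was -3.15 ± 0.66 (adjusted p = 0.00203). Cyp3a11 differed by -2.45 ± 0.53, Aldh1a7, an aldehyde dehydrogenase, by -2.67 ± 0.37 and Afp, alpha-fetoprotein, by -2.37 ± 0.20, all past the test (adjusted p = 0.00228, 9.11e-05 and 1.8e-06). The set-adjusted difference passed the test for 6 of the 8 genes named first and not for Tmprss15 (-3.18, adjusted p = 0.119) or Cyp3a11 (-3.18, adjusted p = 0.0531). The P450 and aldehyde dehydrogenase genes belong to multigene families, so a cluster may share signal among close relatives.

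Jejunal genes that followed labelled Gata4 status included the amino acid genes Slc7a8 and Rragd and the fat uptake gene Cd36. Several of the genes named here also differed between control and wild-type ileum. Their lists were split: 5 of 21 amino acid and peptide uptake genes were higher in the cKI ileum and 7 lower. Of 23 genes of fatty acid uptake and chylomicron assembly, 3 were higher and 5 lower. Slc7a8, which encodes the neutral amino acid transporter LAT2, was at 10.53, 10.44 and 10.31 in the cKI ileum and at 9.07, 8.29 and 8.41 in the labelled cKO jejunum. The cKI ileum lay nearer wild-type jejunum (11.31), the cKO jejunum at wild-type ileum (8.69), and the difference was 1.84 ± 0.25 (adjusted p = 8.29e-05), 3.58-fold. Its control minus wild-type ileum difference was 0.78 (adjusted p = 0.0315). Rragd, a Rag GTPase that relays amino acid supply to mTORC1, was at 7.94, 8.19 and 8.23 against 6.57, 6.91 and 6.41, a 2.81-fold difference (adjusted p = 1.15e-05), while the control ileum exceeded the wild-type ileum by 1.15 (adjusted p = 0.000156). The set-adjusted differences were 1.06 for Slc7a8 and 0.34 for Rragd, neither past the test.

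Cd36, the fatty acid translocase, was at 5.43, 5.84 and 4.83 in the cKI ileum and at 3.90, 3.07 and 4.32 in the labelled cKO jejunum, so that no cKO array reached the level limit, and both were far below wild-type jejunum (8.63). The difference was 1.60 ± 0.36 (adjusted p = 0.0034). Hsd17b6, a hydroxysteroid dehydrogenase, differed by 1.86 ± 0.36 (adjusted p = 0.0011) and Vkorc1, which regenerates vitamin K, by 1.48 ± 0.26 (adjusted p = 0.000577). Dnase1, a secreted endonuclease, was 2.82-fold higher (adjusted p = 0.0101), and without cKI replicate 2 its log2 difference was 0.91. Trim38, a ubiquitin ligase of the TRIM family, had the largest difference of the class, 4.11 ± 0.98 (adjusted p = 0.00457), from 4.75, 9.11 and 9.08 in the cKI ileum and 4.16, 3.45 and 3.02 in the cKO jejunum. One cKI array was below the level limit and the others far above it, and the call was lost with array weights (3.02). Defa39, an alpha-defensin of Paneth cells with near-identical relatives, was at 11.90, 12.02 and 11.25 against 8.08, 9.70 and 9.58, 6.08-fold, with a control minus wild-type ileum difference of 1.64. None of the 8 genes named in this class, Slc7a8 and Rragd included, passed the test in the set-adjusted contrast.

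Ileal genes that followed labelled Gata4 status included, beside Fabp6 and Slc10a2, genes of sulfur, drug and amino acid handling. Suox, which encodes mitochondrial sulfite oxidase, was at 8.62, 9.12 and 8.66 in the cKI ileum and at 10.67, 10.13 and 10.36 in the labelled cKO jejunum. The cKO jejunum lay at the wild-type ileal level (10.47) and not at the jejunal one (5.88), with a difference of -1.58 ± 0.15 (adjusted p = 4.32e-06), and the set-adjusted difference of -1.73 passed the test as well (adjusted p = 0.00125). Rnf180, which encodes a membrane-bound ubiquitin ligase, was at 5.07, 5.31 and 5.23 against 6.90, 6.91 and 7.08, close to wild-type jejunum (5.23) in the cKI ileum and to wild-type ileum (7.13) in the cKO jejunum. The cKI ileum was thus at the jejunal level and the cKO jejunum at the ileal level, a difference of -1.76 ± 0.12 (adjusted p = 2.37e-07). Abcb1a, the drug exporter P-glycoprotein, was 6.07-fold lower in the cKI ileum (adjusted p = 3.42e-05), and its set-adjusted difference of -1.91 did not pass the test (adjusted p = 0.055).

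Slc6a14, a sodium- and chloride-dependent transporter of neutral and basic amino acids, was at 4.67, 4.76 and 4.26 in the cKI ileum and at 8.54, 8.99 and 9.68 in the labelled cKO jejunum, against 9.55 in wild-type ileum and 2.99 in wild-type jejunum. All 3 cKI arrays were below the level limit, and the difference was -4.51 ± 0.71 (adjusted p = 0.000252). The control ileum, however, was lower than the wild-type ileum by nearly as much, -4.31 (adjusted p = 0.000523), and the set-adjusted difference was -0.20. The small cytoplasmic Y RNA gene Rny1 was of the same kind, with -3.47 between cKI ileum and cKO jejunum and -4.02 between control and wild-type ileum. Pla2g4c, a cytosolic phospholipase A2, was at 5.90, 5.77 and 6.14 against 11.00, 8.12 and 8.08, with its first cKO array well above the other two, a difference of -3.13 ± 0.55 (adjusted p = 0.000585) that was -2.35 when set-adjusted, not past the test (adjusted p = 0.162). Hao2, a peroxisomal hydroxyacid oxidase, and Abi3bp, both below the level limit in the cKI ileum, differed by -3.03 ± 0.20 and -2.99 ± 0.34 (adjusted p = 1.65e-07 and 1.97e-05), with set-adjusted differences of -1.69 and -3.55, both past the test.

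Ileal genes that followed position numbered 33. Nupr1, a stress-induced chromatin protein, was at 8.60, 8.69 and 8.36 in the cKI ileum and at 6.75, 7.52 and 7.22 in the labelled cKO jejunum, near the wild-type means of ileum (8.34) and jejunum (6.91). Its difference of 1.39 ± 0.19 (adjusted p = 7.43e-05) stood beside a control minus wild-type ileum difference of 0.05. Plb1, the brush border phospholipase B, was at 10.68, 11.85 and 10.32 against 8.69, 7.56 and 7.17, an 8.83-fold difference (adjusted p = 0.00015), in which both groups exceeded the wild-type means of ileum (7.27) and jejunum (5.72), and its control ileum exceeded wild-type ileum by 2.30. The 7 transcript clusters of Plb1 gave differences from 3.04 to 3.71. Gsdmc2, a gasdermin with close relatives, was higher by 1.41 ± 0.26, the secreted phospholipase A2 gene Pla2g5 by 2.20 ± 0.58 and Casp4, an inflammatory caspase, by 1.35 ± 0.29 (adjusted p = 0.000794, 0.00901 and 0.00238). Rgs2, a regulator of G protein signalling, Chic1 and the phospholipid scramblase gene Plscr1 were higher by 1.27, 1.36 and 1.19, all past the test, beside control minus wild-type ileum differences of 0.89, 0.91 and 1.23. Of these 8 genes, Nupr1 alone passed the test in the set-adjusted contrast (1.33, adjusted p = 0.0241). The other clusters of Chic1 and Plscr1 gave smaller differences, 0.62 and 0.70.

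Many regional genes were at like levels in the 2 groups. For 247 jejunum-high and 127 ileum-high genes the 95% interval of the cKI minus cKO difference lay within 1 log2 of 0, 374 in all. Those with the largest wild-type differences sat between the wild-type levels in both groups. Ddah1, an enzyme that breaks down methylated arginine, was at 9.04, 8.63 and 8.65 in the cKI ileum and at 8.55, 8.40 and 8.77 in the labelled cKO jejunum, against 9.58 in wild-type ileum and 5.32 in wild-type jejunum. Duox2, the hydrogen peroxide-producing oxidase of the epithelial surface, was at 10.16, 10.13 and 10.07 against 10.46, 9.90 and 10.43, near the wild-type ileum mean of 10.67. Both groups thus held these ileal genes nearer the ileal level. Mboat1, an acyltransferase, Mgat4c, a glycosyltransferase, Scd2, a stearoyl-CoA desaturase, and Cd177 differed by 0.05, -0.02, 0.25 and 0.07, none past the test, although Scd2 passed it without cKI replicate 2 (0.36).

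Among jejunum-high genes of this kind, Ugt2a3, a glucuronosyltransferase, was at 8.52, 8.33 and 8.47 in the cKI ileum and at 8.24, 7.99 and 8.24 in the labelled cKO jejunum, between 5.13 in wild-type ileum and 9.69 in wild-type jejunum. Slc46a1, the proton-coupled folate transporter, was at 5.99, 6.56 and 6.33 against 7.09, 6.14 and 6.20, and both groups lay near wild-type ileum (5.89) rather than wild-type jejunum (9.65). Pck1, a gluconeogenic enzyme, was at 6.95, 7.74 and 6.40 against 7.69, 6.60 and 6.93, likewise near wild-type ileum (6.64). Folate transporter and Pck1 signals were thus low in both the ileum with the knockin and the jejunum with the knockout label. Slc25a45 and Gstm6 differed by 0.04 and -0.24 and did not pass the test. Casp6, an apoptotic caspase, passed it with a difference of 0.69 ± 0.13 (adjusted p = 0.000975) whose interval still lay within 1 log2.

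The gene lists describe the same comparison by function. List counts of genes higher or lower in the cKI ileum stand beside 25% and 11.5% of all genes, 36.5% together. In the set-adjusted contrast 78 of 122 named genes lost their call, and the 122 include genes that had no call to lose. A call given below therefore need not hold there. List counts moved when single arrays were left out, and where a count above 3 moved by more than 1.5 times this is given beside it. Where limma called none in a direction, the count at an unadjusted p under 0.05 was 1 for the bile acid, retinoid and Paneth cell lists, 2 for sugar genes, and 0 for the fatty acid oxidation, stem cell, proliferation and interferon lists. Of 15 bile acid recovery and FXR signalling genes, 8 were lower in the cKI ileum and none higher, with a median of -0.76, beside 11.5% lower and a median of 0.10 over all genes. Beside Fabp6 and Slc10a2, they included Slc51b, a subunit of the basolateral bile acid exporter, lower by 1.12 ± 0.22 (adjusted p = 0.00139), and Nr0b2, the repressor SHP that bile acids induce through FXR, which differed by -1.30 ± 0.20 (adjusted p = 0.000205). The set-adjusted difference passed the test for Nr0b2 (-1.99, adjusted p = 0.00338) and not for Slc51b (-0.46, adjusted p = 0.482). The 8 also held Cyp3a11, named above as jejunum-high with position. In the wild-type arrays 5 of the 15 genes were higher in jejunum and 5 in ileum. Of 17 other ileal enterocyte genes, 8 were lower, Suox and Rnf180 among them, and 2 higher. The carboxylesterase gene Ces2a, of a multigene family, was 8.07-fold lower (adjusted p = 3.42e-05). Of 8 cobalamin uptake genes, 2 were higher and 1 lower, 37.5% called beside 36.5% of all genes. Their median of 0.08 turned to -0.06 after quantile normalization and -0.08 after centring. The lower one was Cubn, the receptor of the intrinsic factor-cobalamin complex, at 7.89, 8.84 and 7.63 in the cKI ileum and 11.36, 10.80 and 10.43 in the labelled cKO jejunum (adjusted p = 0.000489). No value of one group reached the other, and Cubn did not differ between the wild-type regions past the test.

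Sugar genes were lower in the cKI ileum where they were called: 5 of 13 sugar transport and fructose breakdown genes, none higher, median -0.61. Fbp1, the gluconeogenic fructose bisphosphatase, Khk, ketohexokinase, and G6pc, glucose-6-phosphatase, were lower by 1.27 ± 0.17, 1.10 ± 0.20 and 1.90 ± 0.40 (adjusted p = 6.93e-05, 0.000618 and 0.00199). Without cKI replicate 2, 9 of these 13 genes were lower. Of 4 brush border disaccharidases, Sis, which encodes sucrase-isomaltase, and Treh, trehalase, were lower, by 1.19 ± 0.22 and 1.62 ± 0.35 (adjusted p = 0.000751 and 0.00246). Mgam, maltase-glucoamylase, and Lct did not pass the test, with differences of -0.30 ± 0.12 and 1.19 ± 0.60, and Lct had the only positive difference of the 4.

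Of 18 fatty acid oxidation and ketogenesis genes, 12 were lower in the cKI ileum and none higher, with a median of -0.68. Acadvl, the very long chain acyl-CoA dehydrogenase, was at 7.84, 7.98 and 7.81 against 9.17, 8.99 and 9.22 in the labelled cKO jejunum (-1.25 ± 0.11, adjusted p = 2.82e-06). Hadha, a subunit of the mitochondrial trifunctional protein, Slc25a20, the carnitine-acylcarnitine carrier, and Pdk4, pyruvate dehydrogenase kinase, differed by -0.77, -1.16 and -2.16, all past the test. Acadvl also differed between control and wild-type ileum (-0.71, adjusted p = 0.000426). The set-adjusted difference did not pass the test for Acadvl (-0.54, adjusted p = 0.121) or Hadha (-0.56, adjusted p = 0.0733). It passed for Slc25a20 (-1.24) and Pdk4 (-1.84). When set-adjusted, 2 of the 18 genes were called lower. In the wild-type arrays 17 of these 18 genes were higher in jejunum, beside 13.4% of all genes, so that their direction here was that of position. Fat uptake genes were mixed: of 23 genes of fatty acid uptake and chylomicron assembly, 3 were higher and 5 lower. That is 34.8% called, beside 36.5% of all genes. Dgat1, which makes triglyceride, was higher by 1.20 ± 0.14 and Apob, the chylomicron scaffold, lower by 1.32 ± 0.29 (adjusted p = 3e-05 and 0.00277). Dgat1 was also higher in control than in wild-type ileum, by 1.49. Of the 23, 8 were lower without cKI replicate 2 and 3 without cKI replicate 3.

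Of 20 cholesterol synthesis genes, 16 were higher in wild-type ileum than in wild-type jejunum. In the cKI ileum 8 of the 20 were lower than in the labelled cKO jejunum and 2 higher, with a median of -0.21. Hmgcs1, which makes hydroxymethylglutaryl-CoA, and Cyp51, a sterol demethylase, were lower by 0.66 ± 0.12 and 0.80 ± 0.16 (adjusted p = 0.000789 and 0.00142). Their set-adjusted differences of -0.46 and -0.19 did not pass the test (adjusted p = 0.205 and 0.705). Cyp51 also differed between control and wild-type ileum (-0.61, adjusted p = 0.0111). The count of lower genes was 4 without cKI replicate 1 or without cKO replicate 3, and 5 without cKO replicate 1. Of 12 retinoid genes, 4 were lower and none higher, Aldh1a1 by 1.49 ± 0.27 (adjusted p = 0.000609). Rbp2, the cellular retinol carrier of enterocytes, differed by -1.68 ± 0.46 (adjusted p = 0.0105), and lost its call without cKI replicate 3 (-1.31). Without that array 2 of the 12 were lower.

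Of 15 iron, folate and calcium genes, 7 were lower and 1 higher, 4 and 1 without cKI replicate 3. Heph, the ferroxidase hephaestin, was lower by 1.16 ± 0.20 (adjusted p = 0.000536). Amino acid and peptide uptake genes were split, with 5 of 21 higher and 7 lower. Slc3a1, the heavy subunit of the cystine transporter, was lower by 1.63 ± 0.24 (adjusted p = 0.000142), and Slc36a1, a proton-coupled amino acid transporter, was higher by 1.13 ± 0.26 (adjusted p = 0.00368). The number higher was 3 without cKI replicate 2 or without cKO replicate 2, and the number lower was 2 without cKI replicate 3, 3 without cKO replicate 1 and 4 without cKI replicate 1. Of 23 drug metabolism genes, 12 were lower and 3 higher, with a median of -0.59. Cyp2c55 was at 2.71, 4.08 and 3.79 in the cKI ileum, below the level limit, and at 8.71, 8.90 and 7.90 in the labelled cKO jejunum (-4.97 ± 0.57, adjusted p = 1.99e-05), above wild-type jejunum (5.69). Abcg2, the urate and drug exporter, was lower by 1.37 ± 0.19 (adjusted p = 7.58e-05).

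Of 21 intestinal transcription factors, 6 were lower and 2 higher, 38.1% called beside 36.5% of all genes. Creb3l3, a membrane-bound factor of lipid metabolism, was lower by 1.82 ± 0.40 and Foxa1 by 0.76 ± 0.12, while Klf5, a factor of crypt cells, was higher by 0.58 ± 0.11 (adjusted p = 0.00288, 0.000282 and 0.00096). When set-adjusted, none of these passed the test (adjusted p = 0.18, 0.644 and 0.5). Foxa1 and Klf5 also differed between control and wild-type ileum (-0.59 and 0.36, adjusted p = 0.00277 and 0.0247).

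**Figure D4:**
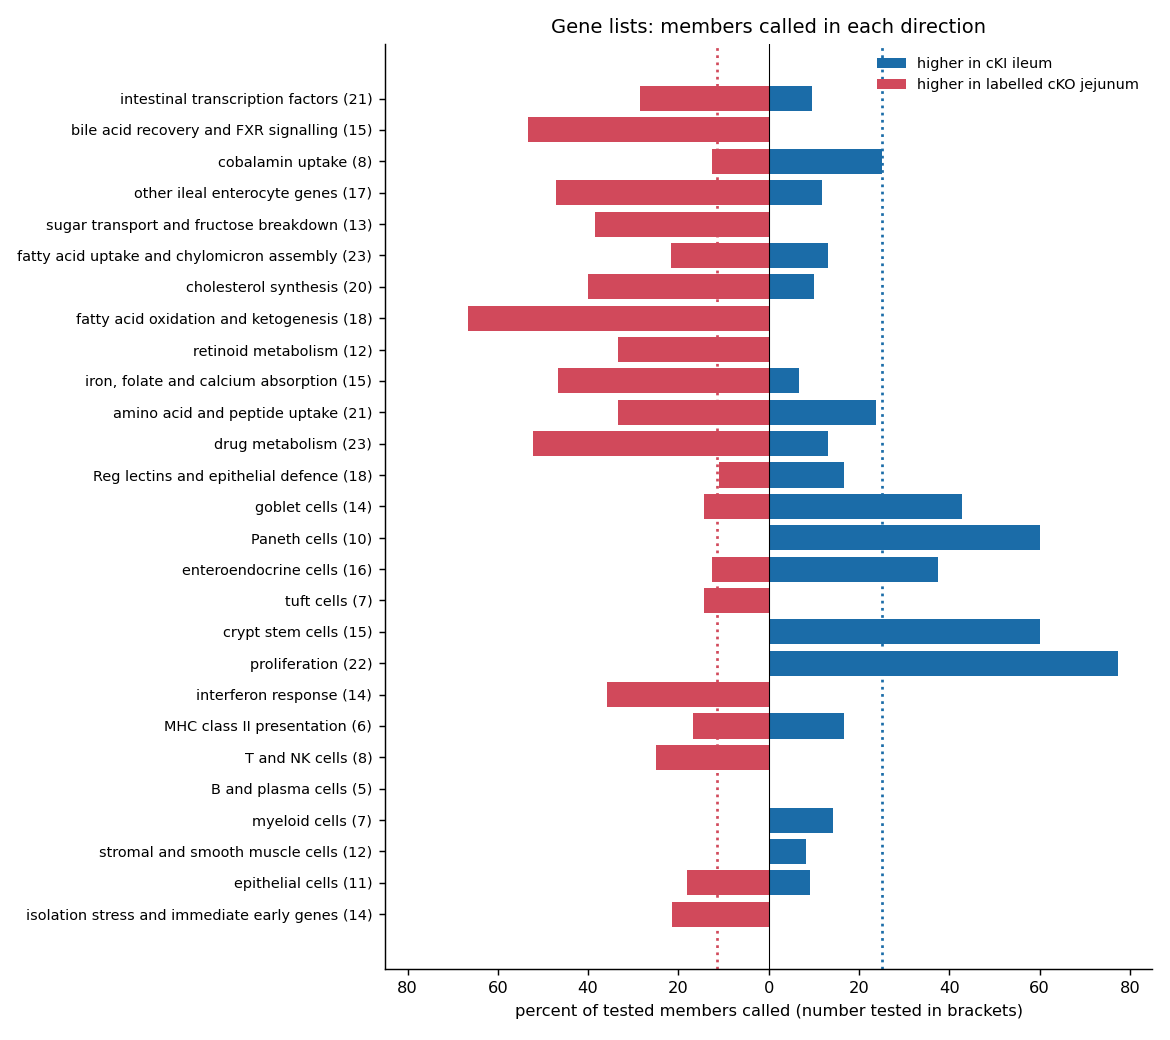
For each list with at least 5 tested members (number in brackets), the percent of members called higher in the cKI ileum (blue, right) and higher in the labelled cKO jejunum (red, left). The dotted lines mark the share of all 11784 genes called, 25% and 11.5%. Fatty acid oxidation (12 of 18) and bile acid genes (8 of 15) lie to the left, proliferation (17 of 22), Paneth (6 of 10) and stem cell genes (9 of 15) to the right.

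Most proliferation and stem cell genes tested were called higher in the cKI ileum as deposited. None was called in the set-adjusted contrast, which has a larger error. Of 22 proliferation genes, 17 were higher and none lower, with a median of 0.72, beside 25% higher and a median of 0.10 over all genes. Cdk1, the mitotic kinase, was at 8.23, 8.16 and 8.70 in the cKI ileum and at 6.30, 7.04 and 6.88 in the labelled cKO jejunum, 3.07-fold (adjusted p = 4.55e-05), Tyms, thymidylate synthase, was 2.38-fold higher and Ccnb2, a cyclin, 1.93-fold (adjusted p = 0.000351 and 0.000541). Of 15 crypt stem cell genes, 9 were higher and none lower. Lgr5, the Wnt-potentiating receptor of crypt base cells, was at 7.75, 7.78 and 7.93 against 6.47, 7.19 and 6.95 (adjusted p = 0.00063), and Tnfrsf19 and Myc were higher by 0.60 ± 0.11 and 0.98 ± 0.19. No array of one group reached the other for Cdk1, Lgr5 or Myc. In such bulk samples more cells of a type and more RNA per cell cannot be told apart. The control ileum also had 6 of the 22 proliferation genes and 5 of the 15 stem cell genes higher than the wild-type ileum, beside 19.3% of all genes. The set-adjusted difference called none of either list in limma, with medians of 0.35 and 0.17. At an unadjusted p under 0.05, 4 and 2 genes were higher and 0 lower. The number of proliferation genes called higher between cKI and cKO fell to 11 without cKI replicate 3 or without cKO replicate 1. The stem cell count was 6 without cKO replicate 1.

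The secretory lineages shared this direction in part. Of 10 Paneth cell genes, 6 were higher and none lower, with a median of 0.72. Lyz1, lysozyme, was at 13.08, 13.09 and 12.75 against 11.97, 12.40 and 12.47 (0.70 ± 0.14, adjusted p = 0.00185), and Habp2 was higher by 1.00 ± 0.18 (adjusted p = 0.000659). Neither passed the test when set-adjusted (0.27 and 0.79, adjusted p = 0.536 and 0.152). Mmp7, matrilysin, differed by 1.24 ± 0.38 (adjusted p = 0.0204) and lost its call without cKI replicate 1 (1.15), without cKI replicate 2 (1.11) or without cKO replicate 1 (0.71). The Paneth count was 3 without cKI replicate 1 or without cKO replicate 1. Of 14 goblet cell genes, 6 were higher and 2 lower: Agr2, which helps to fold mucins, and Atoh1, the secretory lineage factor, were higher by 1.02 ± 0.10 and 0.57 ± 0.10, and Clca1 was lower by 1.00 ± 0.12 (adjusted p = 3.94e-06, 0.000508 and 2.38e-05). The set-adjusted difference of Atoh1 was 0.23, not past the test (adjusted p = 0.421).

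Of 16 enteroendocrine genes, 6 were higher and 2 lower, beside 7 higher in control than in wild-type ileum, where 19.3% of all genes were higher. Ghrl, which encodes ghrelin, was at 5.93, 5.90 and 5.48 in the cKI ileum and at 8.06, 8.36 and 8.09 in the labelled cKO jejunum, 5.26-fold lower (adjusted p = 1.8e-06), with a control minus wild-type ileum difference of 0.13. Its level in the cKO jejunum was above both wild-type means (5.71 and 6.29). Sst, somatostatin, Gip and Cck were higher in the cKI ileum by 1.39, 1.29 and 0.83, all past the test, beside control minus wild-type ileum differences of 1.17, 2.41 and 1.17. Of 7 tuft cell genes, Avil was called, with -0.47, and lost its call without cKI replicate 3 (-0.41) and without cKO replicate 1 (-0.34) or 2 (-0.44). Of 18 Reg lectin and epithelial defence genes, 3 were higher and 2 lower, and their median of 0.15 turned to -0.01 after centring. Ang4, an antimicrobial angiogenin, was higher by 1.69 ± 0.20 (adjusted p = 2.14e-05).

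Of 14 interferon response genes, 5 were lower in the cKI ileum and none higher, with a median of -0.74. Irf7, a master regulator of the response, was at 7.35, 7.82 and 6.52 against 9.68, 9.07 and 9.46 in the labelled cKO jejunum, 4.52-fold lower (adjusted p = 0.000405), and Rsad2, viperin, was lower by 1.49 ± 0.36 (adjusted p = 0.00543). Ifit1 differed by -1.23 ± 0.37 (adjusted p = 0.0183) and lost its call without cKI replicate 3 (-1.18) and without cKO replicate 1 (-1.13) or 3 (-1.07). In the wild-type arrays 12 of these 14 were higher in jejunum, beside 13.4% of all genes. In the control ileum 8 were higher than in the wild-type ileum, beside 19.3% of all genes. The set-adjusted difference, which subtracts this one, called 6 of the 14 lower and none higher, with a median of -2.01. Of all genes it called 0.883% lower. The count of lower genes was 2 without cKI replicate 3 or without cKO replicate 1.

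Few markers of immune and stromal cells passed the test. Of 8 T and NK cell genes, 2 were lower in the cKI ileum, the granzyme gene Gzma by 1.65 ± 0.43 (adjusted p = 0.00819) and the intraepithelial lymphocyte integrin gene Itgae by 0.99 ± 0.34 (adjusted p = 0.0338). Without cKI replicate 2, 5 of the 8 were lower, and 4 without cKO replicate 2. Itgae lost its call without cKI replicate 1 (-0.90) or 3 (-0.91) and without cKO replicate 1 (-0.77) or 3 (-0.94). The mean level of the 12 T and NK cell markers in the table was 4.54 to 5.54 in the cKI ileum and 5.48 to 6.01 in the labelled cKO jejunum, with Cd3d, Cd8b1, Cd2 and Klrd1 at or below 4.91 throughout. The 15 stromal and smooth muscle markers had means of 5.06 to 5.41 against 4.79 to 5.02, and 1 of 12 tested, Vim, was higher, by 0.83 ± 0.23 (adjusted p = 0.0108), beside 1.68 between control and wild-type ileum. The stromal mean was thus higher on all 3 cKI arrays than on all 3 cKO arrays. Entered as a covariate, it raised the number of ileum-high genes that went with position from 33 to 83. The part of these cells in the differences was otherwise not tested.

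Of 7 myeloid genes, Lyz2 was called, higher by 0.73 ± 0.20 (adjusted p = 0.0117), and not without cKO replicate 1 (0.48). Of 6 MHC class II genes, H2-DMa was higher by 1.49 ± 0.19 (adjusted p = 5.06e-05) and Cd74 differed by -0.68 ± 0.24 (adjusted p = 0.0393), a call lost without cKI replicate 1 (-0.42) and without cKO replicate 1 (-0.47) or 3 (-0.66). Their list's median of 0.04 turned negative after quantile normalization (-0.04) and centring (-0.11). None of 5 B and plasma cell genes and none of 2 endothelial and glial genes passed the test in limma, and 0 had an unadjusted p under 0.05. Of 11 epithelial genes, Krt8, a keratin, was higher by 0.71 ± 0.11, Ezr, the microvillus linker ezrin, lower by 1.26 ± 0.27 and Vil1, villin, lower by 0.54 ± 0.18 (adjusted p = 0.000146, 0.00197 and 0.0278). Vil1 lost its call without cKI replicate 1 (-0.57) or 3 (-0.34) and without cKO replicate 1 (-0.43) or 3 (-0.56). Of 14 isolation stress and immediate early genes, 3 were lower, among them the transcription factor gene Jun by 0.94 ± 0.23 and the phosphatase gene Dusp1 by 1.01 ± 0.28 (adjusted p = 0.00582 and 0.012), the latter not without cKO replicate 1 (-0.81). Without that array 1 of the 14 was lower and 1 higher.

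Outside the regional genes, several of the largest differences also separated the control from the wild-type ileum. Snord22, a small nucleolar RNA, was at 5.50, 4.79 and 5.09 in the cKI ileum and at 10.47, 10.60 and 10.83 in the labelled cKO jejunum, 45.5-fold lower (adjusted p = 4.12e-10). Its control minus wild-type ileum difference was -5.50, so that both control and cKI ilea were low and both wild-type regions and the cKO jejunum high. Snord61, Snord58b, Snord55 and Snord42a differed by -5.13, -5.07, -3.52 and -3.49, beside -5.01, -4.99, -3.51 and -3.26 between control and wild-type ileum. Snord53 went the other way, at 8.04, 7.85 and 8.40 against 5.42, 6.40 and 5.27, 5.29-fold higher (adjusted p = 2.38e-05). Of all 46 tested Snord and Snora genes, a group singled out after its values were seen, 27 were lower and 9 higher in the cKI ileum, beside 11.5% and 25% of all genes, and 27 were lower and 5 higher in control than in wild-type ileum, beside 8.61% and 19.3%. The set-adjusted contrast called none of the 46 in limma, with 14 higher and 0 lower at an unadjusted p under 0.05.

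Cks2, a cyclin-dependent kinase subunit, was at 9.57, 9.18 and 9.53 in the cKI ileum and at 6.11, 6.59 and 6.28 in the labelled cKO jejunum, 8.59-fold higher (adjusted p = 1.72e-08). Terc, the RNA component of telomerase, was at 9.15, 9.12 and 9.34 against 6.31, 6.50 and 6.32, 7.08-fold higher (adjusted p = 4.12e-10). The proteasome subunit genes Psmb5 and Psmb3 were 6.78-fold and 6.38-fold higher (adjusted p = 8.29e-09 and 3.72e-09). For these 4 genes the control minus wild-type ileum differences were 2.56, 2.66, 2.07 and 2.40, and no set-adjusted difference passed the test. Apol10a, an apolipoprotein L, was at 8.43, 8.34 and 8.03 in the cKI ileum and at 3.46, 3.97 and 3.38, below the level limit, in the cKO jejunum (4.67 ± 0.91, adjusted p = 0.00117). Its control minus wild-type ileum difference of 1.71 did not pass the test (adjusted p = 0.179): 1 control array, at 8.57, was at the level of the cKI ileum, and the others, at 3.44 and 3.65, were at that of the wild-type ileum (mean 3.51). BC018473 was at 8.52, 8.47 and 3.95 in the cKI ileum, 1 array there being as low as the cKO jejunum arrays (3.54 to 4.07). Its difference of 3.16 ± 1.14 (adjusted p = 0.0421) lost its call when any single array except cKI replicate 3 was left out, with values from 2.39 to 3.29.

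**Figure D5:**
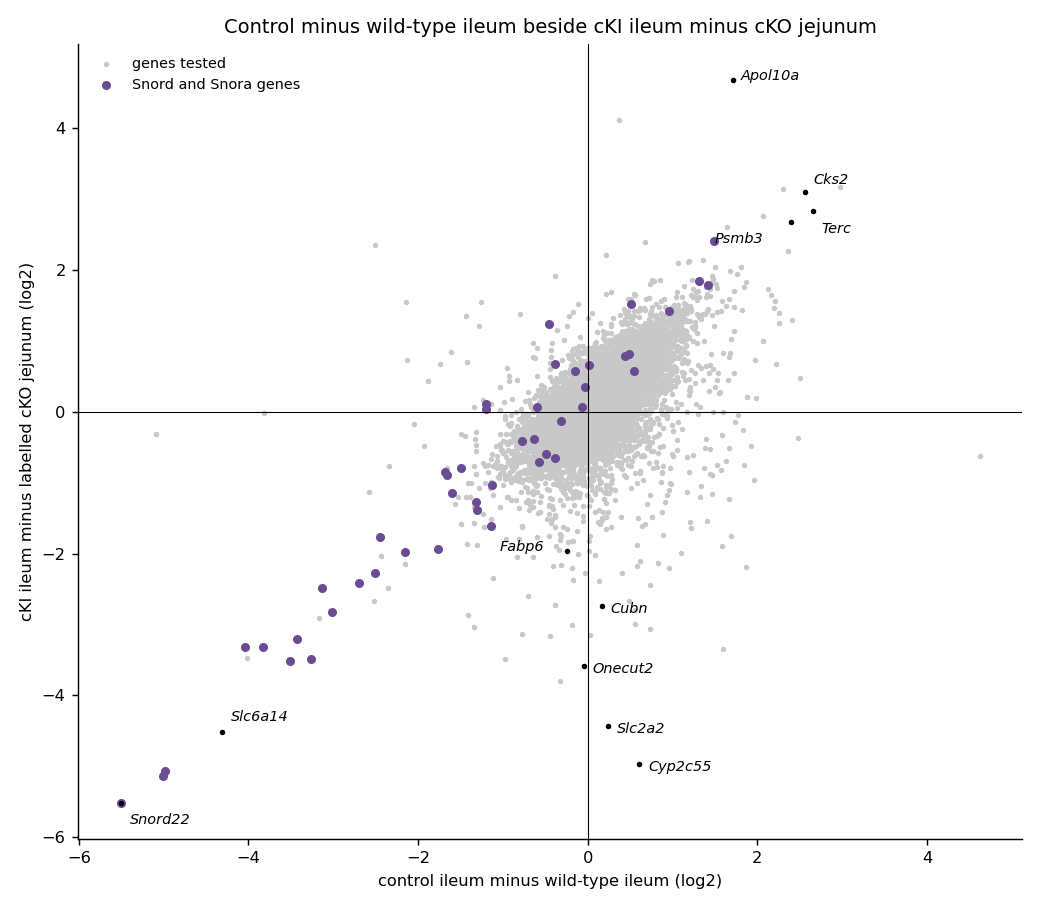
Each grey point is 1 of the 11784 genes tested, placed by its control minus wild-type ileum difference (horizontal axis, log2) and its cKI ileum minus labelled cKO jejunum difference (vertical axis, log2), which share no array. Purple points are the 46 Snord and Snora genes. Snord22, Slc6a14, Terc, Psmb3 and Cks2 differ alike on both axes, while Slc2a2, Onecut2, Cyp2c55, Cubn and Fabp6 differ on the vertical axis and lie within 1 log2 of 0 on the horizontal one.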

How the data were processed

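Per the labels, RNA of isolated epithelial cells was purified with RNeasy kits and given biotin in a sense-strand, whole transcript labelling. The deposited log2 values were made by the authors with Partek, per the submitters' processing notes. The sources used here do not give its version, background correction or normalization, and the log2 scale was read from the values' range. Of 35556 transcript clusters, 21789 carried 1 gene symbol in the platform annotation, 1621 several and 12146 none. The latter 2 kinds were left out. For 999 of 19938 genes with several clusters, the brightest was used. Genes with a largest group mean above 4.91, the table's median, were tested (11784).

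All 15 arrays entered 1 linear model with a mean for each group (limma 3.58.1, R 4.3.3). Tests were two-sided and moderated, p-values were adjusted over the genes tested (Benjamini-Hochberg), and a gene is called at an adjusted p under 0.05. The code was tested on simulated data. Exact permutation tests used SciPy 1.17.1. Folds are given only where both group means exceeded 4.91. Promoters came from RefSeq (GRCm38.p6).

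Genes and lists were chosen with earlier results of these data known. There were 32 lists with 494 distinct symbols, 441 of them in the table and 396 tested. Lists not described by a count in the text are pancreas and erythrocytes (1 of 2 lower) and sex-linked genes (0 of 3 called in limma, 1 at an unadjusted p under 0.05). Named were Gata4, Gata5, Gata6, Fabp6, Slc10a2 and Lct. Added were the 10 largest differences per direction, the 8 largest per class of regional gene, and 6 per direction with an interval within 1 log2 of 0. The rest were up to 4 members per list by smallest p, and the 5 largest per direction outside the regional genes. The text gives part of these. Alternatives were the 6 arrays alone, other filters and scalings, array weights, a replicate block, a stromal covariate, other fold limits and references, and leaving out arrays.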

Additional observations from a re-analysis of the deposited data

Results flagged for a closer look

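For 5 of the 6 genes named in every case, the jejunum minus ileum difference was not the same in the wild-type mice as in the modified mice, where it is the labelled cKO jejunum minus the cKI ileum (interaction term in limma, adjusted over all genes tested). Over all genes, 3843 of 11784 (32.6%) passed this test. The difference of Fabp6 was -8.28 in wild-type and 1.97 in modified mice, which differ by -10.25 ± 0.34 (adjusted p = 1.56e-10). Slc10a2 had -6.82 and 2.34, which differ by -9.16 ± 0.41 (adjusted p = 3.38e-09). For these 2 bile acid genes all 3 labelled cKO jejunum arrays exceeded all 3 cKI ileum arrays, the reverse of the wild-type order. Lct had 7.13 and -1.19, which differ by 8.32 ± 0.84 (adjusted p = 7.13e-06). Gata4 had 3.93 and 1.64, which differ by 2.29 ± 0.26 (adjusted p = 1.9e-05), and kept its direction. Gata6 had 0.79 and -0.15, which differ by 0.94 ± 0.14 (adjusted p = 0.000202). For Gata5, with 0.16 and 0.41, the difference of -0.25 ± 0.26 did not pass the test (adjusted p = 0.485). The labels give the strain of the wild-type mice and not of the modified mice, and the cause was not tested. Groups of 3 arrays were not searched for outlying arrays.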

How the results depend on the processing

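Without 1 array, the genes higher in the cKI ileum numbered 2220 to 2927 and those lower 1005 to 1351, and the jejunum-high genes with position and with labelled Gata4 status and the ileum-high genes with position and with status numbered 99 to 171, 42 to 63, 24 to 40 and 49 to 63. The index difference ranged from -0.0797 to -0.006. The set-adjusted contrast called 43 genes higher and 104 lower, and left 44, 1, 8 and 10 in the 4 classes in the same order. These class counts are values only, because the contrast shares the wild-type ileum arrays with the choice of genes. Errors in those arrays push genes toward position. A 4-fold limit left 51, 21, 6 and 13 genes and no fold limit 325, 322, 184 and 160. Control ileum as the reference, with the limit given above, left 263, 30, 247 and 35. Centring gave 2317 lower genes and 34 jejunum-high genes with status, and the stromal covariate 83 ileum-high genes with position. The replicate numbers did not pair the arrays: deviations of cKI and cKO arrays with equal numbers correlated by -0.00827, -0.408 and 0.189, and 1 of 6 arrays correlated best with its own number. A replicate block over all arrays called 2911 genes higher and 1349 lower, and with the 6 arrays alone 1968 and 825.

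Of 2071 values of 122 named genes under these settings, 1908 kept direction and call, 8 gained the call and 37 changed direction. The call was lost in 125 values, 78 of them in the set-adjusted contrast, and 7 of these 78 also changed direction. All genes that changed direction in the set-adjusted contrast, with or without a call in the full fit, were Casp6 (-0.10), Cck (-0.33), Dgat1 (-0.29), Duox2 (0.56), Gata6 (-0.41), Gip (-1.12), Lct (-0.08), Mgat4c (0.18), Plscr1 (-0.04), Rny1 (0.55), Slc25a45 (-0.93), Ugt2a3 (-1.27) and Vim (-0.85). Under quantile normalization and centring they were Cd177 (-0.05 and -0.09), Mboat1 (-0.05 and -0.10) and Slc25a45 (-0.07 and -0.11), with Gata6 (-0.01) under centring. With the stromal covariate they were Duox2 (0.14), Mgat4c (0.08), Slc25a45 (-0.42) and Ugt2a3 (-0.02), and with array weights Pck1 (0.16). Without 1 array at a time, Cd177 ranged from -0.22 to 0.25, Mgat4c from -0.13 to 0.16, Pck1 from -0.40 to 0.27, Slc25a45 from -0.19 to 0.20, Slc46a1 from -0.35 to 0.12 and Zfpm1 from -0.15 to 0.07. The genes that turned on leaving out an array had no call in the full fit. The cause of these changes was not tested.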

Other observations

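Matches to the 4 GATA letters in the 250 bases upstream of the start were counted by class, over genes with a sequence in the table used. They were found for 34 of 113 jejunum-high genes with position (30.1%), 9 of 51 with labelled Gata4 status (17.6%), 5 of 26 ileum-high genes with position (19.2%) and 12 of 47 with labelled Gata4 status (25.5%), beside 17.3% of all tested genes counted in this way. These shares are descriptions with no test.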
